A study of Mus musculus with 9 samples.

Results

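The small structured noncoding RNAs of the mouse frontal cortex were followed here across Neat1 genotypes. They were chosen by annotation and by level: genes that GENCODE vM21 types as snoRNA, scaRNA, snRNA, misc_RNA or ribozyme, with a mean of 1 CPM or more over the 9 libraries (CPM, read counts scaled to a common library total), and lying farther than 5 Mb from Neat1 on chromosome 19. The rule gave 59 genes of 43629 in the counts. The counts held 3494 genes of the 5 types, of which 1846 had a read in some library, and the 5 Mb window removed 0 genes. By type there were 32 snoRNAs, 13 misc_RNAs, 7 scaRNAs, 5 snRNAs and 2 ribozymes. At the threshold, DQ267102 (1.01 CPM) and Gm25082 (1.05 CPM) lay just inside, and Gm25848 (0.950 CPM) and Gm25492 (0.934 CPM) lay just outside.

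RNA came from 4 Neat1-/- mice (replicates 1, 3, 4 and 5, aged 3, 3, 4 and 2 months) and 5 wild-type (WT) mice (replicates 1 to 5, aged 2, 2, 3, 4 and 4 months), all female and on C57BL/6, with 1 library per mouse. In the Neat1-/- mice a lacZ cassette with polyadenylation signals stands just downstream of the Neat1 start site, so the allele is carried by the whole animal and not restricted to brain. Total RNA was depleted of ribosomal RNA rather than selected for poly(A), and the values below are TMM-normalized CPM from the deposited counts. Neat1 itself had 7.38, 7.11, 8.36 and 9.72 CPM in the Neat1-/- libraries, against 60.8, 83.2, 120, 68.1 and 75.3 CPM in the WT libraries, a fold change of 0.0998 (edgeR adjusted p = 1.27e-06).

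Small structured RNAs work as the cores of ribonucleoproteins. Neat1 is the long noncoding RNA around which nuclear paraspeckles are built, and most of the RNAs described here also act in the nucleus. 7SK RNA holds the elongation factor P-TEFb inactive. RNase P RNA matures the 5' ends of tRNAs, and RNase MRP RNA takes part in processing ribosomal RNA. C/D box snoRNAs guide 2'-O-methylation and H/ACA box snoRNAs guide pseudouridylation of ribosomal RNA, while scaRNAs guide the same modifications on spliceosomal snRNAs in Cajal bodies. 7SL RNA is the scaffold of the signal recognition particle, and Y RNAs bind the Ro60 and La proteins. Most snoRNAs of mammals are cut from the introns of host genes, whereas 7SK, RNase P, RNase MRP, 7SL and Y RNAs have RNA polymerase III promoters of their own.

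Across the series, libraries held 52629603 to 64648856 counts in Neat1-/- and 51276067 to 62819932 in WT mice. Markers of excitatory cortical neurons were all detected (7 of 7, summing to 1299 to 1341 CPM in Neat1-/- and 1252 to 1398 CPM in WT libraries). Choroid plexus markers summed to 16.1 to 28.3 CPM in Neat1-/- and 22.3 to 119 CPM in WT libraries (highest in WT 3), meningeal fibroblast markers to 91.0 to 127 CPM in Neat1-/- and 39.3 to 251 CPM in WT libraries, and oligodendrocyte markers to 1788 to 2737 CPM in Neat1-/- and 2082 to 3242 CPM in WT libraries, with 0 markers of any list at 0 in all libraries. Their part in the levels of the small RNAs was not tested. WT 1 and Neat1-/- 5 stood apart in the levels of many of the 59 RNAs, and WT 3 and WT 4 in a smaller set. Several of the results that rest on them are given with and without them. The pair WT 1 and Neat1-/- 5 was picked after the levels were seen, as the highest and the lowest library of many RNAs. Higher fold changes, Neat1-/- over WT, without this pair therefore follow from the choice.

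The 59 RNAs were 70 to 414 nt long, with a median of 144 nt. By symbol or, for snoRNAs without a family symbol, by their letters, they comprised 1 7SK RNA, 2 RNase P or MRP RNAs, 2 Y RNAs, 8 scaRNAs, 5 snRNAs, 15 H/ACA box snoRNAs, 12 C/D box snoRNAs, 4 snoRNAs of no box class, 2 7SL RNAs and 8 other misc_RNAs. The letters searched were ACA 3 bases before the 3' end (H/ACA) and TGATGA within the first 20 or CTGA within the last 20 bases (C/D), on the RNA strand only. ACA at that place was found in 14 of the 32 snoRNAs (43.8%) and in 267 of all 1484 snoRNA genes in the counts, against 1.99% of the 2008 genes of the other 4 types with a sequence. TGATGA together with CTGA was found in 8 of these 32 and in 20.7% of all snoRNA genes, against 0.249% of the other types. Either was enough for the class, and how common each is alone was not counted over all genes. Gm24966 and Gm22771 were classed by CTGA alone and Gm24088 by TGATGA alone. CTGA at that place also stood in the misc_RNAs RF01953, Gm24146, Gm27660 and Gm25082. Of the 59, 37 lay inside another gene on its own strand (32 in an intron, 5 overlapping an exon), 3 lay only inside a gene of the opposite strand, and 19 lay in neither, by the genes of GENCODE vM21.

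Sequences are given in DNA letters from the GENCODE vM21 transcripts (GRCm38), 5' to 3'. The 7SK family is shown first because its genes are near copies of each other. Rn7sk (chr9:78175303-78175633, minus strand), Gm24146 (chr5:139844930-139845250, plus strand) and Gm26035 (chrX:152923453-152923760, minus strand) differ in only a few of their first 100 bases, with bases that differ from Rn7sk in capitals. Over the full length of the shorter RNA, Gm24146 matched Rn7sk at 85.7% and Gm26035 at 81.2% of the bases.
Rn7sk: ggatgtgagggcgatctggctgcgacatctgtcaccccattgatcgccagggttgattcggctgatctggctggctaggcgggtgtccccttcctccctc
Gm24146: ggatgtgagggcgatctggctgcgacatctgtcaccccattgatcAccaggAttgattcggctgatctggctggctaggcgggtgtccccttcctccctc
Gm26035: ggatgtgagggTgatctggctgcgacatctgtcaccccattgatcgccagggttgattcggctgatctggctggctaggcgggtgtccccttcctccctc

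The pair of snRNA genes Gm25939 (chr1:72255008-72255198, plus strand) and Gm25360 (chr1:72226240-72226430, plus strand) is closer still, with 188 of 191 bases identical. The 3 bases of Gm25360 that differ are in capitals. Among the RNAs described here the pairs Gm25788 and Gm22154 (96.9% identical), Gm26498 and Gm24088 (93.7%) and Gm25117 and Gm25291 (92.4%) were also near copies, and Gm26498 and Rn7s2 have identical copies elsewhere in the annotation. The division of reads within such pairs is uncertain, because how reads that fit several places were counted is not stated.
Gm25939: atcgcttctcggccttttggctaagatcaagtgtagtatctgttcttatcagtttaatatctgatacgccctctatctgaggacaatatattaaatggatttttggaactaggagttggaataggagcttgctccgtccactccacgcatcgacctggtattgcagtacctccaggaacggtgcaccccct
Gm25360: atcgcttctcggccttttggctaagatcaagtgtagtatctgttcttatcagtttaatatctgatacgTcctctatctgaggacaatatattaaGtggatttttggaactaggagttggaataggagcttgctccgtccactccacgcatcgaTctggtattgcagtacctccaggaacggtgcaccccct

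Gm22513 (chr12:54696782-54696945, plus strand), another snRNA gene, is shown for the 9 letters in capitals, the reverse complement of the mammalian 5' splice site consensus. The same letters stood in 3.98% of 1383 snRNA genes and in 1.66% of all 3492 genes of the 5 types with a sequence.
Gm22513: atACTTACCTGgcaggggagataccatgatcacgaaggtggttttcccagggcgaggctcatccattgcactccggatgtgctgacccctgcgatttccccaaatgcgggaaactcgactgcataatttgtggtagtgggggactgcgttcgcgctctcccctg

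The Y RNAs Rny3 (chr6:47781624-47781725, plus strand) and Rny1 (chr6:47788069-47788180, minus strand) share 80 of the 102 bases of the shorter, and both end in the run of T in capitals, the kind of end that La binds. An end of TTTT stood in 14.1% of the genes of the 5 types.
Rny3: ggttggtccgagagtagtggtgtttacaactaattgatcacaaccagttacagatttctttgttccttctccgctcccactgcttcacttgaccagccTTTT
Rny1: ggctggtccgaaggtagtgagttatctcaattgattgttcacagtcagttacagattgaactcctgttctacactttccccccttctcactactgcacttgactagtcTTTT

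The next sequences are the RNAs with the smallest genotype p-values. Snora43 (chr2:26637847-26637985, minus strand), Gm26397 (chr8:126944847-126944980, minus strand) and Snora78 (chr17:24719676-24719803, minus strand) carry ACA, in capitals, 3 bases from the end. RF01953 (chr3:34638368-34638639, plus strand) is typed misc_RNA and contains the 79 nt hairpin of the microRNA gene Mir1897, in capitals, on the same strand (chr3:34638464-34638542, from RefSeq). RefSeq places it inside Sox2ot, the long noncoding RNA gene that overlaps Sox2.
Snora43: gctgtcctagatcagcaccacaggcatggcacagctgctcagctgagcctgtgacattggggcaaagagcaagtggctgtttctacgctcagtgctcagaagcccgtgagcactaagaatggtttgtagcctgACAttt
Gm26397: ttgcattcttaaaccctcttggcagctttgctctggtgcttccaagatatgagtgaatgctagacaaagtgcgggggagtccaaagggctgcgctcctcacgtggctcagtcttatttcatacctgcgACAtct
Snora78: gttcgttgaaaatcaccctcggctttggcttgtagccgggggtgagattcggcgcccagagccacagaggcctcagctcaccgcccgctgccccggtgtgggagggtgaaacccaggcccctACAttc
RF01953: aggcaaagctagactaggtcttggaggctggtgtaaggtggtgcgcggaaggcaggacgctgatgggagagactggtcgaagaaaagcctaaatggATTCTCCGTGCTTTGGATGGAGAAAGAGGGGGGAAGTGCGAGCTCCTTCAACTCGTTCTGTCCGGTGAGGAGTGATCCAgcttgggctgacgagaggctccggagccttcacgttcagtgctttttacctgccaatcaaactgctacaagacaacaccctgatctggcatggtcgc

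The last set comes from the introns of the long noncoding RNA genes Snhg14 and Rian, both of them imprinted and rich in C/D box snoRNAs. Gm24966 (chr7:59344073-59344151, minus strand), Gm26498 (chr7:59386081-59386159, minus strand) and Gm24088 (chr7:59410933-59411011, minus strand) lie in Snhg14. Gm24564 (chr12:109631074-109631148, plus strand), DQ267102 (chr12:109656345-109656416, plus strand) and Gm23600 (chr12:109643748-109643818, plus strand) lie in Rian. TGATGA and CTGA, where found in the windows above, are in capitals.
Gm24966: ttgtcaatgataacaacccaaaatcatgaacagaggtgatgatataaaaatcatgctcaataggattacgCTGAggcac
Gm26498: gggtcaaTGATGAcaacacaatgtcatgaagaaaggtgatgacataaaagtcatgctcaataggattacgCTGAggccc
Gm24088: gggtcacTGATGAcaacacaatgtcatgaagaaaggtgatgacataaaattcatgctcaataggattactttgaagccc
Gm24564: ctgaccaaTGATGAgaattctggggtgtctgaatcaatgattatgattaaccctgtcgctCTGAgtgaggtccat
DQ267102: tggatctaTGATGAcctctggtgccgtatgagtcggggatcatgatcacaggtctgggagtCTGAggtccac
Gm23600: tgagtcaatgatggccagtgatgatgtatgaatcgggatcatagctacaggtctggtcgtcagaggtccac

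Levels spanned from 3.70 CPM per kb for Rn7s2 to 19682 CPM per kb for Rn7sk (means over 9 libraries). The 59 RNAs together took 0.678 to 0.811% of all counts in Neat1-/- libraries and 0.656 to 0.913% in WT libraries, and 86.8% of those counts were Rn7sk. Per kb, Rpph1, the RNase P RNA, followed at 1523 CPM per kb, then Scarna13 (265 CPM per kb), Gm22009, a scaRNA (254 CPM per kb), Gm22442, also a scaRNA (223 CPM per kb), Rmrp, the RNase MRP RNA (222 CPM per kb), Scarna2 (183 CPM per kb) and Rny3 (180 CPM per kb). The median was 106 CPM per kb over the 8 scaRNAs, 15.3 CPM per kb over the 15 H/ACA and 15.3 CPM per kb over the 12 C/D box snoRNAs, 12.01 CPM per kb over the 5 snRNAs and 4.08 CPM per kb over the 7SL pair. Standard TruSeq libraries are not made for RNAs this short, and the treatment of reads that fit several copies of a gene is not stated, so these levels describe the counted reads rather than the molecules in the cell. In CPM, 44 of the 59 averaged 5 CPM or less.

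**Figure D1:**
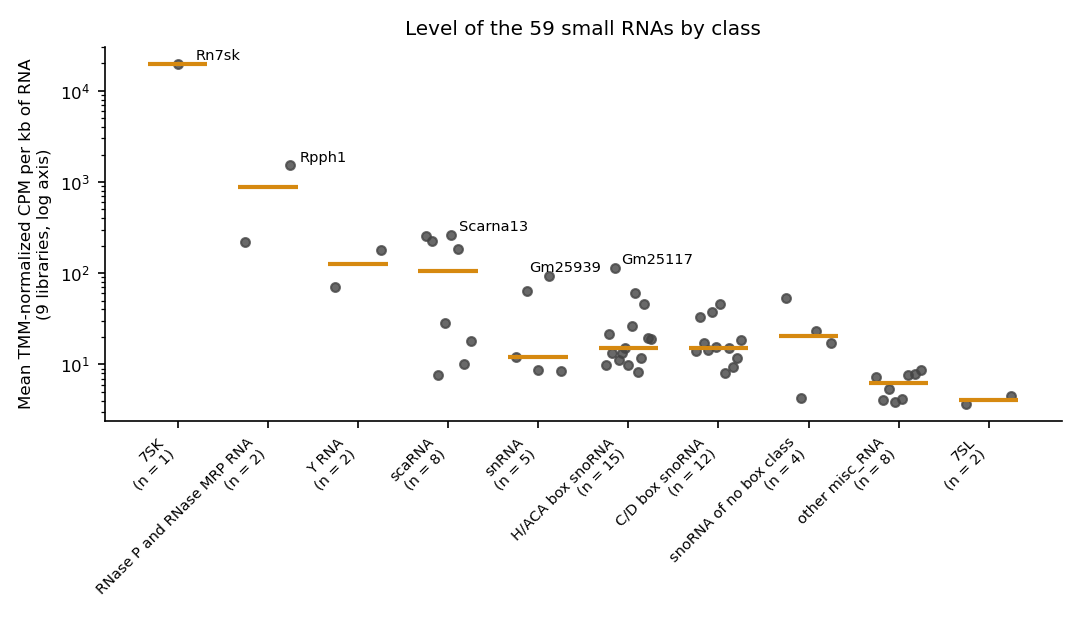
Mean TMM-normalized CPM per kb of RNA over the 9 libraries (y axis, logarithmic) for the 59 small RNAs by class (x axis), where each point is 1 RNA and each bar the class median. Rn7sk stands at 19682 CPM per kb, above Rpph1 at 1523 CPM per kb and every other RNA.

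Loss of Neat1 was not accompanied by a called change in any of the 59 RNAs. All 59 passed the low-count filter, and 0 of 59 had an adjusted p under 0.05 between Neat1-/- and WT (edgeR's quasi-likelihood test with age as a covariate, Benjamini-Hochberg over 19753 genes), where 14 of all genes tested, or 0.0709%, were called. DESeq2 and limma's voomWithQualityWeights also called 0 of 59, with 2 and 3 at an unadjusted p under 0.05, where the share of all genes was not counted. At an unadjusted p under 0.05, edgeR gave 1 RNA higher in Neat1-/- (Snora43) and 3 lower (RF01953, Gm26397 and Gm26498), against 4.27% of all genes higher and 4.03% lower, so their number is near the background. The levels of the genotypes did not overlap for 1 of 59, Snora43, against 2.67% of all genes. In bulk tissue, fewer cells of a type and less RNA per cell cannot be told apart. The p-values set the genotype difference against the spread between these mice, which with 1 library per mouse includes that of library preparation.

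The intervals show how large a difference the 9 libraries leave room for. For all 59 RNAs, the 95% interval of the fold change, Neat1-/- over WT, lay within 2-fold, from 0.527 at the lowest to 1.96 at the highest bound. The median SE was 0.17 on the log2 scale, against 0.08 over all genes tested. The median coefficient of variation over the 9 libraries was 17.9%, where the counting error alone would give 8.79%, both genotypes together. The ratio of the observed coefficient to that of counting error ranged from 0.565 to 61.7, with a median of 2.19.

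**Figure D2:**
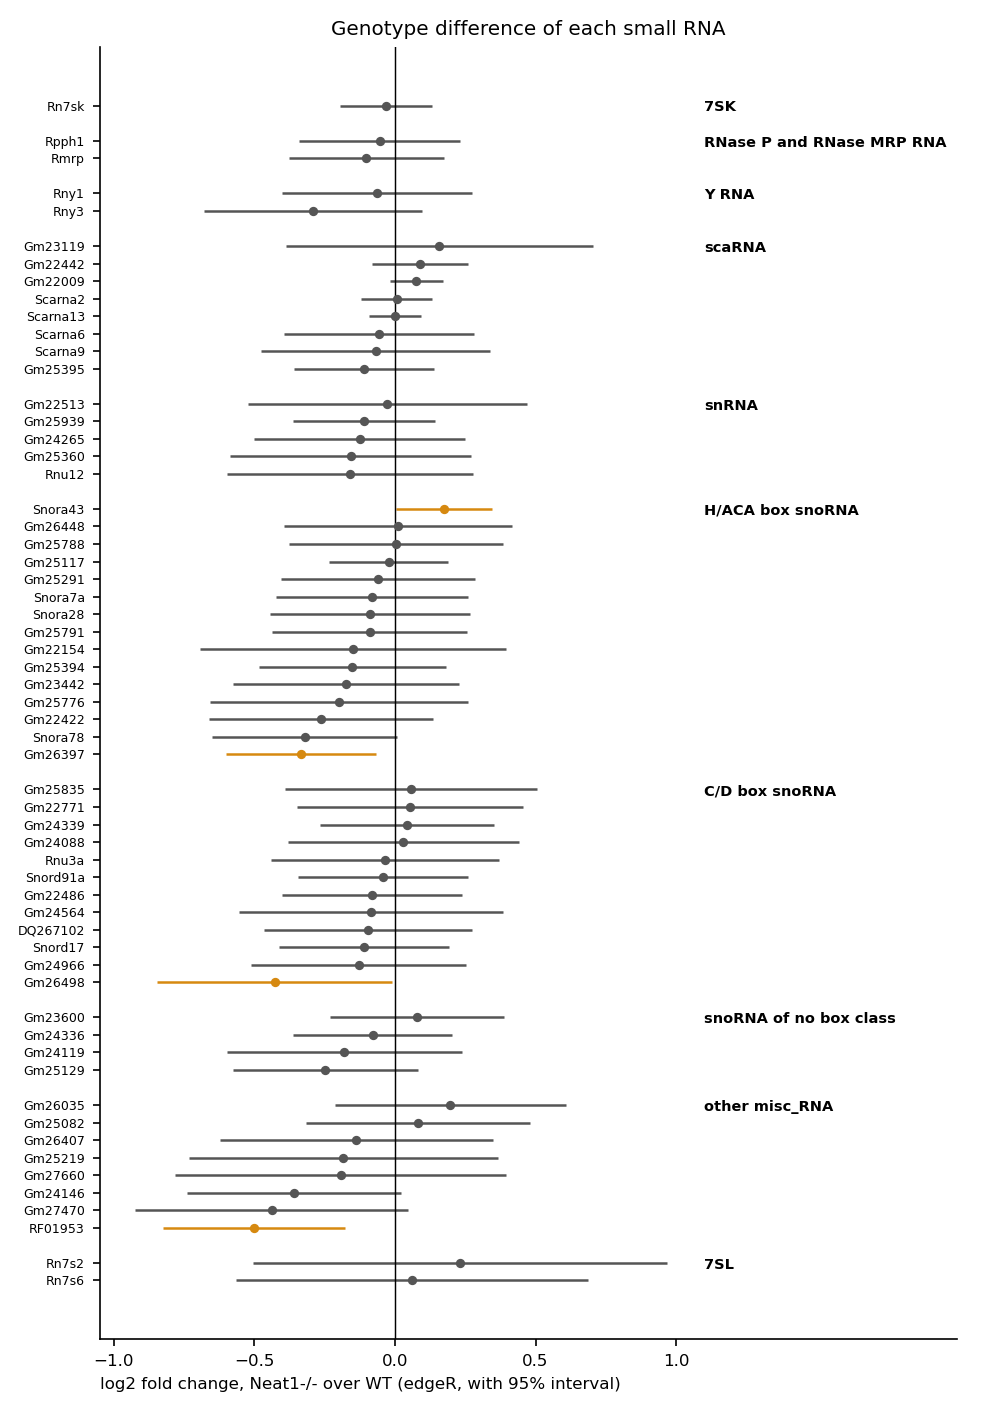
log2 fold change, Neat1-/- over WT, of each of the 59 RNAs from edgeR (x axis) with its 95% interval, grouped by class (y axis). The 4 intervals that leave out 0 are coloured (Snora43 on the right, RF01953, Gm26397 and Gm26498 on the left), and none of these RNAs had an adjusted p under 0.05.

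7SK RNA had nearly the same level in both genotypes. Rn7sk had 7086, 6418, 6349 and 5890 CPM in Neat1-/- libraries, against 7912, 5776, 6526, 6172 and 6505 CPM in WT libraries. The highest and the lowest values were both WT, and the log2 fold change was -0.03 (SE 0.08, edgeR adjusted p = 0.927), with a 95% interval of -0.19 to 0.13. Of the near copies, Gm24146 averaged 2.00 ± 0.326 CPM in Neat1-/- and 2.57 ± 0.509 CPM in WT libraries (SD, n = 4 and 5), and Gm26035 averaged 1.29 ± 0.235 CPM in Neat1-/- and 1.13 ± 0.172 CPM in WT libraries. Their log2 fold changes were -0.36 and 0.20, and neither was called. Of the 7 proteins of the 7SK particle and P-TEFb, among them Hexim1 and Larp7, 0 were called, with the cyclin genes Ccnt2 at a log2 fold change of -0.08 and Ccnt1 at 0.02. Mepce was at 0.07 (edgeR unadjusted p = 0.0835), and its genotypes did not overlap (32.8 to 33.8 CPM in Neat1-/- and 30.4 to 32.5 CPM in WT libraries).

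The catalytic RNAs differed more among WT libraries than between genotypes. Rpph1 had 549, 462, 418 and 471 CPM in Neat1-/- libraries, against 714, 383, 489, 428 and 460 CPM in WT libraries. Rmrp had 61.2, 58.1, 59.3 and 51.7 CPM in Neat1-/- libraries, against 88.4, 51.01, 62.6, 52.8 and 56.4 CPM in WT libraries. For both RNAs WT 1 was the highest and WT 2 the lowest library, with all 4 Neat1-/- libraries between them. The log2 fold changes were -0.05 (SE 0.13) for Rpph1 and -0.10 (SE 0.13) for Rmrp. Without WT 1 and Neat1-/- 5, picked after the levels were seen, they were 0.11 and 0.10. Of the 11 RNase P and MRP proteins 0 were called, with Pop5 at a log2 fold change of 0.05 and Rpp14 at 0.00 (-0.0041).

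Y RNAs and 7SL RNAs overlapped between genotypes and were not called. Rny3 had 19.6, 15.7, 18.7 and 11.2 CPM in Neat1-/- libraries, against 28.2, 15.8, 20.6, 16.4 and 18.9 CPM in WT libraries. WT 1 was the highest and Neat1-/- 5 the lowest, which held for Rny1 as well (5.58 CPM in Neat1-/- 5 and 10.5 CPM in WT 1). The log2 fold changes were -0.29 (95% interval -0.68 to 0.10) for Rny3 and -0.06 for Rny1. Without WT 1 and Neat1-/- 5, picked after the levels were seen, they were 0.00 (0.0029) for Rny3 and 0.17 for Rny1. Of the 2 tested genes of Y RNA and La proteins, Trove2, which encodes Ro60, had a log2 fold change of 0.01 and Ssb, which encodes La, of 0.07, and 0 were called. Rn7s2 had 1.63, 1.19, 0.815 and 1.204 CPM in Neat1-/- libraries, against 1.62, 0.402, 0.727, 1.23 and 1.18 CPM in WT libraries, with WT 2 the lowest and the other values of both genotypes interleaved. It had the widest interval of all 59 (log2 fold change 0.23, from -0.51 to 0.97), and Rn7s6 was at 0.06. Of the 6 tested proteins of the signal recognition particle 0 were called, with Srp72 at 0.01 and Srp14 at 0.02.

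Of the 5 snRNAs 0 were called. All 5 had log2 fold changes below 0, where 50.1% of all genes tested were below 0. Without WT 1 and Neat1-/- 5, picked after the levels were seen, only 1 of 5 was below 0. Gm25939 had 18.7, 18.8, 17.7 and 13.1 CPM in Neat1-/- libraries, against 22.6, 18.3, 17.6, 15.3 and 18.7 CPM in WT libraries (log2 fold change -0.11, SE 0.12). Gm24265 had 9.82, 9.04, 9.02 and 6.19 CPM in Neat1-/- libraries, against 13.5, 8.18, 9.68, 7.07 and 8.54 CPM in WT libraries (log2 fold change -0.13, SE 0.17). In both, Neat1-/- 5 was the lowest and WT 1 the highest library, and the remaining 7 were interleaved. Rnu12, the U12 RNA of the minor spliceosome, was at -0.16. Of 15 Sm and U snRNP proteins 0 were called, and Lsm11, a protein of the U7 particle, had an unadjusted p of 0.0287 and a log2 fold change of -0.09. Snrpn and Snrnp70 had log2 fold changes of 0.01 and 0.03. Of 19 tested proteins that transcribe snRNAs or cut their 3' ends 0 were called, with the Integrator subunits Ints1 at 0.03 and Ints3 at -0.07, and Ints10 had the smallest adjusted p of all lists (log2 fold change -0.14, adjusted p = 0.397). The genotypes did not overlap for Ints10 (55.4 to 60.3 CPM in Neat1-/- and 61.7 to 65.2 CPM in WT libraries, exact permutation p = 0.00794).

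The scaRNAs included the RNA with the smallest spread of all 59, Scarna13, whose coefficient of variation over the 9 libraries was 4.53%. Scarna13 had 72.8, 73.6, 72.6 and 72.4 CPM in Neat1-/- libraries, against 73.8, 71.2, 68.8, 69.7 and 80.4 CPM in WT libraries. The 4 Neat1-/- values lay within the WT range, and the log2 fold change was 0.00 (0.0011, 95% interval -0.09 to 0.09). Scarna2 was at 0.01 and Gm25395 at -0.11, whereas Gm22009 averaged 89.7 ± 6.12 CPM in Neat1-/- and 85.0 ± 3.34 CPM in WT libraries (SD, n = 4 and 5, log2 fold change 0.08, unadjusted p = 0.105). Gm22442 averaged 33.2 ± 0.583 CPM in Neat1-/- and 31.3 ± 4.78 CPM in WT libraries (log2 fold change 0.09). Among 9 Cajal body and nucleolar chaperone proteins 0 were called, with Npm1 at 0.08 (unadjusted p = 0.03) and Nolc1 at -0.01.

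Of the box snoRNAs, 0 were called, and 3 (Snora43, Gm26397 and Gm26498) had an unadjusted p under 0.05. Snora43, an H/ACA box snoRNA that RefSeq places in Snhg7, had 6.62, 7.39, 6.93 and 6.65 CPM in Neat1-/- libraries, against 5.54, 6.33, 6.10, 6.36 and 6.21 CPM in WT libraries. Every Neat1-/- value was above every WT value, with a log2 fold change of 0.18 (SE 0.08, edgeR adjusted p = 0.596), and the exact permutation p was 0.00794, the smallest that groups of 4 and 5 mice can give. Without any 1 of 8 of the 9 libraries, all but WT 2, its unadjusted p was 0.0612 or more.

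Gm26397, an H/ACA box snoRNA in an intron of Tomm20, had 6.82, 6.59, 9.23 and 5.52 CPM in Neat1-/- libraries, against 9.94, 8.20, 9.24, 8.33 and 8.35 CPM in WT libraries. Neat1-/- 1, 3 and 5 lay below all WT libraries and Neat1-/- 4 among them, with a log2 fold change of -0.33 (SE 0.12, edgeR adjusted p = 0.562, exact permutation p = 0.0556). Without Neat1-/- 5 the log2 fold change was -0.23 (unadjusted p = 0.09). Without WT 1 and Neat1-/- 5, picked after the levels were seen, it was -0.19. Its host Tomm20, a receptor of the mitochondrial outer membrane, had a log2 fold change of 0.10 (unadjusted p = 0.0083) and was not called either. Snora78, in Snhg9, averaged 2.17 ± 0.265 CPM in Neat1-/- and 2.71 ± 0.441 CPM in WT libraries (SD, n = 4 and 5, log2 fold change -0.32, unadjusted p = 0.0548), and it also lies opposite Rps2, from whose reads it cannot be told apart without strand.

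Gm25117, in Nap1l1, was the most abundant H/ACA box snoRNA per kb (114 CPM per kb) and had a log2 fold change of -0.02. Over the class, 12 of 15 H/ACA box snoRNAs were below 0, from -0.33 to 0.18, and 8 of 12 C/D box snoRNAs, from -0.43 to 0.06, beside 50.1% of all genes. Without WT 1 and Neat1-/- 5, picked after the levels were seen, 8 of 15 H/ACA and 6 of 12 C/D RNAs were below 0. Of the C/D box snoRNAs, Gm22486, which RefSeq names Snord94, was at -0.08. The 9 C/D and 6 H/ACA core and assembly proteins had 0 called genes, with Nop56 at 0.06, Nop58 at 0.08, Nop10 at 0.04 and Dkc1, the pseudouridine synthase, at 0.01. The remaining lists also had 0 called genes of 15 RNA polymerase III genes (Bdp1 -0.04, Maf1 0.06, and Brf1 0.11 with an unadjusted p of 0.017 and no overlap between genotypes) and 0 of 3 vault proteins (Tep1 -0.01, Mvp 0.00, or 0.0016). Over all 102 protein genes tested, 2 were higher and 2 lower in Neat1-/- at an unadjusted p under 0.05, and 0 were called. These were 3.92% of the 102, against 8.30% of all genes tested. The genotypes did not overlap for 3 of the 102 (Mepce, Ints10 and Brf1), against 2.67% of all genes.

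RF01953, the RNA around the Mir1897 hairpin, had the smallest genotype p of the 59. It had 2.101, 1.85, 2.05 and 1.66 CPM in Neat1-/- libraries, against 2.38, 1.83, 3.31, 2.92 and 3.29 CPM in WT libraries. WT 1, 3, 4 and 5 were above all Neat1-/- libraries and WT 2 was among them, with a log2 fold change of -0.50 (SE 0.15, unadjusted p = 0.00539, edgeR adjusted p = 0.471, exact permutation p = 0.0635). With any 1 library left out, the log2 fold change lay between -0.59 and -0.43. RF01953 was 1.44 times as high in WT 3 and WT 4 as in the other libraries (means). Leaving out 1 library at a time cannot show how far the difference rests on that pair. Of the WT libraries outside the pair, WT 1 and WT 5 were above all Neat1-/- libraries and WT 2 was among them. In the fit without the pair, RF01953 kept a log2 fold change below 0 and was not called. Its log2 change per month of age was 0.24 (unadjusted p = 0.0236). With 87 to 200 reads a library, its coefficient of variation was 3.16 times that of counting error.

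**Figure D3:**
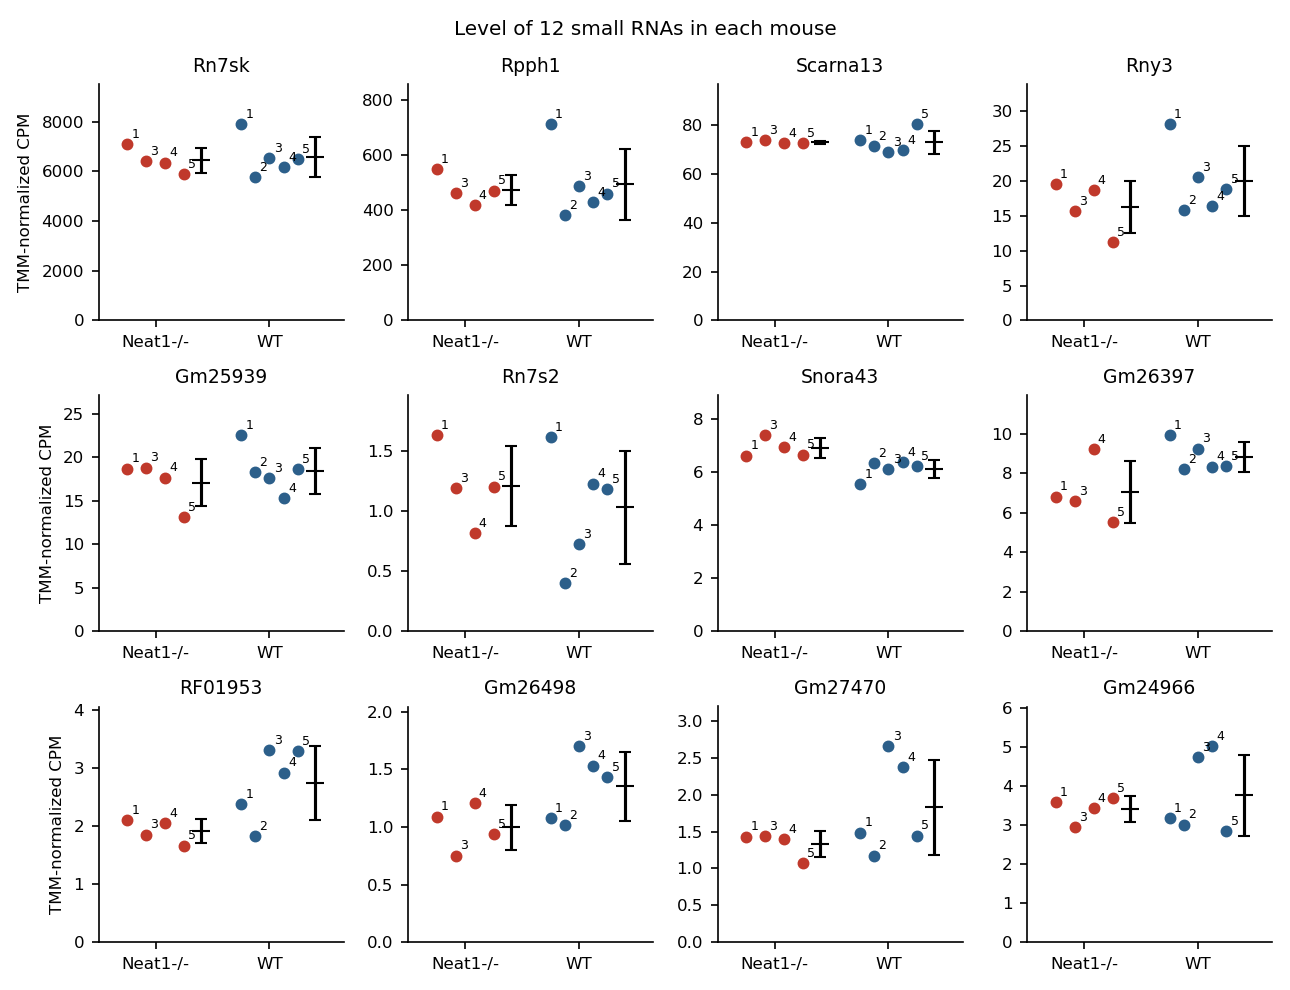
TMM-normalized CPM (y axes, from 0) of 12 small RNAs in the 4 Neat1-/- mice (left, red) and the 5 WT mice (right, blue), each point labelled with its replicate number, with mean and SD as black bars. WT 1 is the highest library for Rpph1 (714 CPM) and Rny3 (28.2 CPM), and WT 3 and WT 4 are the highest for Gm27470 and Gm24966.

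As a set the 59 RNAs leaned below 0. Their median log2 fold change was -0.08, with 42 below and 17 above 0, while the median of all 19753 genes was 0.00 (-0.00023). The lean moved with single libraries. WT 1 had the highest level of 24 of the 59 RNAs (40.7%), against 12.1% of all genes tested. Neat1-/- 5 had the lowest level of 24 (40.7%), against 9.19% of all genes. Without WT 1 the median was -0.02, without Neat1-/- 5 it was -0.01 (-0.0056), and without WT 2 it was -0.13. Without both WT 1 and Neat1-/- 5, a pair chosen after seeing these shares, so that a higher median follows from the choice, it was 0.03, with 25 RNAs below and 34 above 0. In that fit 0 of 59 were called and the unadjusted p was under 0.05 for 3, where the share of all genes was not counted.

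The shift in WT 1 differed by position. The median deviation in WT 1 from each RNA's 9-library mean was 0.42 on the log2 scale over the 19 RNAs outside other genes, and 0.16 over the 37 inside a gene of their strand, by GENCODE. RefSeq, searched without regard to strand, places 6 of those 19 inside a gene (Scarna13, Gm24265, Snora43, RF01953, Rn7s6 and Gm23119). Over the other 13 the median was 0.515. By class it was 0.58 for RNase P and MRP RNAs, 0.54 for Y RNAs and 0.72 for 7SL, each a class of 2 RNAs. It was 0.52 for snRNAs and 0.29 for Rn7sk. For H/ACA box snoRNAs it was 0.30, for scaRNAs 0.16 and for C/D box snoRNAs 0.13. The 8 other misc_RNAs (-0.09) and the 4 snoRNAs of no box class (-0.06) were below 0. In Neat1-/- 5 the medians were -0.20 outside and -0.24 inside genes, with Y RNAs at -0.58. WT 1 also had the highest summed level of the marker lists of excitatory cortical neurons (1398 CPM), erythrocytes (20.9 CPM), striatum (108 CPM) and oligodendrocytes (3242 CPM), and the part of these in the levels of the small RNAs was not tested.

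**Figure D4:**
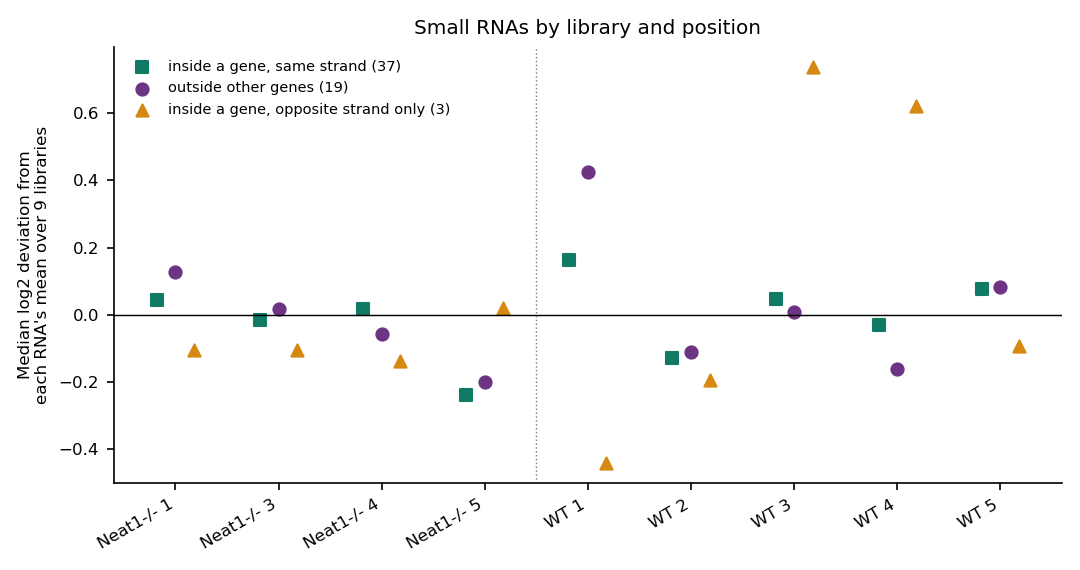
Median log2 deviation from each RNA's own mean over 9 libraries (y axis) in each library (x axis, Neat1-/- left of the dotted line, WT right), for 37 RNAs inside a gene of their strand (squares), 19 outside other genes (circles) and 3 inside a gene of the opposite strand only (triangles). WT 1 is at 0.42 for RNAs outside other genes, and WT 3 and WT 4 are at 0.74 and 0.62 for the RNAs opposite to a gene.

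WT 3 and WT 4 stood apart for another set of RNAs. Gm27470 and Gm27660, misc_RNAs that lie inside Dlg2 on the other strand, and Gm25219, inside Kmt2e on the other strand, were 1.86, 1.83 and 1.78 times as high in these libraries as in the other 7 (means). Gm27470 had 1.43, 1.43, 1.40 and 1.07 CPM in Neat1-/- libraries, against 1.49, 1.17, 2.66, 2.37 and 1.45 CPM in WT libraries. Both values were above all the others, and the counts of Dlg2 and Kmt2e themselves were 1.03 and 1.151 times as high. Whether reads were counted by strand is not stated, so reads from these RNAs and from the introns of Dlg2 and Kmt2e cannot be told apart. In the same libraries, genes typed as TEC (transcripts still to be experimentally checked) or sense intronic took 0.234 and 0.212% of the counts, against 0.113 to 0.136% in the other 7, and their part in these levels was not tested.

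Some RNAs in introns of host genes shared this pattern. Gm26498 and Gm24966 in Snhg14, Gm24564 in Rian and Gm25129 in Snhg11 were 1.43 to 1.51 times as high in WT 3 and WT 4 as in the other 7 libraries, while their hosts were 1.11 to 1.27 times as high. Their neighbours Gm24088 in Snhg14 (1.13 times), Gm23600 (1.21 times) and DQ267102 (1.11 times) in Rian were shifted less. Gm25291, in the protein-coding gene Sec24a, was 1.197 times as high, and Sec24a itself 1.193 times. Gm24966 had 3.58, 2.94, 3.44 and 3.69 CPM in Neat1-/- libraries, against 3.18, 3.01, 4.73, 5.02 and 2.84 CPM in WT libraries. Gm26498 had 1.09, 0.752, 1.21 and 0.936 CPM in Neat1-/- libraries, against 1.08, 1.01, 1.70, 1.53 and 1.43 CPM in WT libraries. In both, WT 3 and WT 4 were the highest, and WT 1 and WT 2 lay among the Neat1-/- values. Without these libraries the log2 fold change of Gm26498 was -0.30 (unadjusted p = 0.161) in place of -0.43 (unadjusted p = 0.0459), and that of Gm24966 was 0.20 in place of -0.13. The unadjusted p of Gm26498 was also above 0.05, up to 0.139, without any 1 of 6 libraries (WT 1, 3 or 4, or Neat1-/- 1, 3 or 4). In all, 8 of 59 RNAs (13.6%) were higher in both libraries than in all others, against 14.0% of all genes tested, so their number was that of the background. By position they were 3 of 3 opposite to a gene, 5 of 37 inside a gene of their strand and 0 of 19 outside.

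The hosts were compared beside the RNAs. The 37 RNAs have 29 host genes, of which 0 were called (smallest edgeR adjusted p = 0.435), with 4 higher (Rpsa, Tomm20, Rpl32 and Eif5, log2 fold change 0.08 to 0.12), or 13.8%, and 0 lower at an unadjusted p under 0.05, against 4.27% of all genes higher and 4.03% lower. RNA and host had the same sign of log2 fold change in 20 of 37 pairs. Among the hosts of the RNAs named here, Kpna4 was at -0.05, Chd3 at 0.01, D230017M19Rik at -0.02, Nap1l1 at 0.04, Atg16l1 at 0.01, Ptcd3 at -0.04, Rian at -0.03, Snhg14 at -0.09, Snhg11 at -0.02, Cwf19l1 at 0.03, Snhg9 at 0.25 (SE 0.28) and Clk4 at 0.07. Per kb of sequence, 22 of the 37 RNAs were above their host's exons, the scaRNA Gm22009 at 254 CPM per kb against 9.46 CPM per kb for Kpna4, and Gm25939 at 93.5 CPM per kb against 0.732 CPM per kb for D230017M19Rik. The other 15 were below, such as Gm24119 at 4.27 CPM per kb against 55.1 CPM per kb for Slc25a3. Reads of an unspliced intron and of the RNA within it cannot be told apart in these counts.

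**Figure D5:**
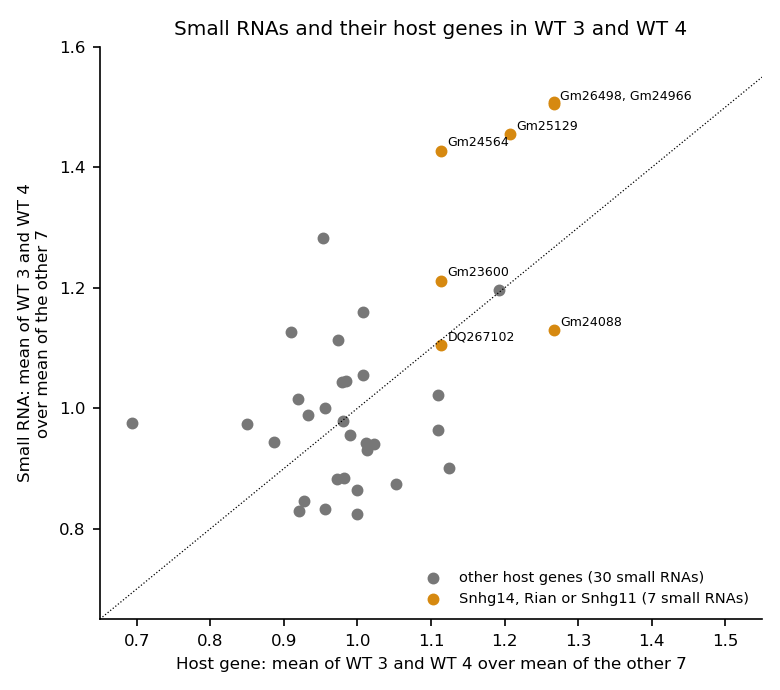
Mean level of WT 3 and WT 4 over the mean of the other 7 libraries for each host gene (x axis) and for the small RNA inside it (y axis), with a dotted line of equal ratios and 37 points. Gm26498, Gm24966, Gm25129 and Gm24564 lie above the line at 1.43 to 1.51.

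Age gave no called RNA. Between 2 and 4 months, 0 of 59 RNAs had an adjusted p under 0.05 for the change per month (edgeR), as had 0.0% of all 19753 genes. At an unadjusted p under 0.05 there were 2, both higher with age, against 5.98% of all genes: RF01953 (above) and Gm24119, a snoRNA in Slc25a3 (log2 change per month 0.32, unadjusted p = 0.0183). Gm24119 had 1.04, 1.01, 1.19 and 0.669 CPM in the Neat1-/- libraries aged 3, 3, 4 and 2 months, against 1.01, 0.820, 1.01, 1.07 and 1.63 CPM in the WT libraries aged 2, 2, 3, 4 and 4 months. The lowest library was 2 months old and the highest 4 months old, and the ages did not overlap. The gaps were narrow, with WT 1 (2 months) at 1.0123 CPM and Neat1-/- 3 (3 months) at 1.0138 CPM. Neat1-/- 1 (3 months) had 1.04 CPM and WT 4 (4 months) 1.07 CPM. How many of all genes are ordered by age in this way was not counted.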

How the data were processed

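RNA of frontal cortex grey matter from 4 Neat1-/- and 5 WT mice was sequenced by the authors after RiboZero Gold depletion with a TruSeq kit. The authors deposited raw read counts per Ensembl gene, unnormalized. STAR 2.5.0 and HTSeq 0.8.0, with mm10, are listed in the notes of the submitters, and the supplementary methods name TopHat and an earlier HTSeq run in intersection-strict mode, which drops reads reaching beyond a gene's exons. Whether counting used strand, and how reads with several alignments were treated, is not given in the sources used here. A deposited table of normalized values was not used.

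From the counts (0 columns of other samples), types, positions and sequences came from GENCODE vM21 by Ensembl ID (42548 of 43629 IDs, 99.9% of counts) and names of spanning genes from RefSeq on GRCm38.p6. Genes were kept by filterByExpr (19753 genes) and tested with edgeR 4.0.16 (glmQLFit, glmQLFTest, R 4.3.3), TMM factors, age in months and genotype, with Benjamini-Hochberg adjustment over all genes at 0.05. For single RNAs the CPM of the genotypes was set side by side in an exact permutation test (two-sided). Fitting was tested on simulated data. The RNAs, lists and tests were chosen with earlier results of these data known. Named RNAs were the 15 highest, the 2 highest of each class, the 5 with the smallest p in each direction and those at the threshold, with their hosts, and of each list the called genes or else the 2 highest. Genes named besides these, such as Gm27470, Gm27660, Gm25219, Gm25129, Gm25291, Gm24119, Lsm11, Ints10, Mepce and Brf1, were chosen after their values were seen. Alternatives were DESeq2 1.42.0, limma 3.58.1, other scalings, filters and age terms, a replicate block and leaving out libraries. Library depth was 51276067 to 64648856 counts, and 1 CPM was 58.7 reads on average.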

Additional observations from a re-analysis of the deposited data

Results flagged for a closer look

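For 5 of the 118 sets of values looked at (59 RNAs in each genotype), 1 library lay far from the others of its genotype, and chance gives about 1 in 20. In Neat1-/- 5, Gm27470 had 1.07 CPM (others 1.40 to 1.43 CPM), Gm25835, a C/D box snoRNA in Eif4a1, had 0.802 CPM (others 1.31 to 1.36 CPM), and Gm24088 had 1.41 CPM (others 1.03 to 1.07 CPM). Scarna2 had 79.6 CPM in Neat1-/- 3, above 74.6 to 75.1 CPM in the other Neat1-/- libraries. Gm24339, a C/D box snoRNA in Cep295, had 2.28 CPM in WT 2, below 2.83 to 3.02 CPM in the other WT libraries.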

How the results depend on the processing

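Under each of 21 other settings for genotype, 1 of them chosen after seeing the data (without WT 1 and Neat1-/- 5), 0 of the 59 RNAs and 0 of the listed protein genes were called, and 0 RNAs were called for age. The number at an unadjusted p under 0.05 was 4 with edgeR, 2 with DESeq2 and between 2 and 7 with 1 library left out, with 2 without Neat1-/- 3, 2 without Neat1-/- 4 and 7 without WT 2. The share of all genes was counted in edgeR's main fit only (4.27% higher and 4.03% lower). The numbers from the other fits therefore cannot be set against their own background. At a mean CPM of 0.5 or more it was 5 of 100, and at 2 or more 3 of 31. The median log2 fold change lay between -0.13 (without WT 2) and -0.01 (-0.0056, without Neat1-/- 5) over the other settings and was 0.03 without WT 1 and Neat1-/- 5.

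Correlations of deviations between same-numbered mice of the genotypes were 0.044, -0.045, 0.137 and -0.077. Between mice of different numbers they lay from -0.115 to 0.105. These values do not settle whether replicate numbers paired the mice. With a replicate block the number at an unadjusted p under 0.05 was 7, the median was -0.12 and 0 RNAs were called. The share of all genes under 0.05 in that fit was not counted.

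The sign of the log2 fold change turned for the following RNAs, 0 of them called. The pair WT 1 and Neat1-/- 5 was picked after the levels were seen, so higher values without it follow from the choice. Without WT 1 and Neat1-/- 5, Rn7sk was at 0.083, Rpph1 at 0.11, Rmrp at 0.10, Rny3 at 0.0029, Gm25939 at 0.081, Gm25117 at 0.11, Gm24265 at 0.16, Rny1 at 0.17, Gm22486 at 0.10 and Gm24336 at 0.053. With library totals in place of TMM, Scarna2 was at -0.0040 and Scarna13 at -0.0090. With totals that left out the small RNAs, Scarna2 was at -0.0044 and Scarna13 at -0.0093. With a filter at 1 CPM in 4 libraries, Scarna2 was at -0.0044 and Scarna13 at -0.0093. With the replicate block, Scarna2 was at -0.021, Gm25117 at 0.012 and Rn7s6 at -0.11. Without WT 3 and WT 4, Scarna2 was at -0.060, Scarna13 at -0.060, Gm22442 at -0.010 and Gm24966 at 0.20. With DESeq2, Scarna13 was at -0.00064. With DESeq2's size factors in edgeR, Scarna13 was at -0.00060. With age as a factor, Rn7s6 was at -0.079. With 1 library left out, the log2 fold changes spanned -0.090 to 0.050 for Rn7sk, -0.17 to 0.11 for Rpph1, -0.034 to 0.054 for Scarna2, -0.029 to 0.040 for Scarna13, -0.19 to 0.054 for Rmrp, -0.19 to 0.037 for Gm25939, -0.10 to 0.078 for Gm25117, -0.23 to 0.068 for Gm24265, -0.17 to 0.10 for Rny1, -0.15 to 0.31 for Rn7s6, -0.031 to 0.63 for Rn7s2, -0.24 to 0.072 for Gm22486, -0.15 to 0.011 for Gm24336 and -0.0029 to 0.13 for Gm25082. The causes were not tested.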
